A study of Mus musculus with 9 samples.

Results

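The open regions of mouse chromosome 14 were followed in 9 ATAC-seq libraries of B16 melanoma cells. In each library the 9214 most significant peaks were kept, the length of the shortest list, and overlapping peaks were merged, which gave 15643 regions in all. Of these, 428 lay on chromosome 14, and 96 of the 428 were called in all 9 libraries. ATAC-seq uses a transposase that cuts and tags accessible DNA, so a peak marks a stretch of open chromatin. The groups, with 3 libraries each, were Res499, B16_IFNg and B16_untreated. Res499 is a B16-derived line, labelled resistant, that received no treatment. B16_IFNg is B16 exposed to interferon gamma before injection, for 2 weeks in replicates 1 and 2 and for 3 weeks in replicate 3, and B16_untreated is B16 with no treatment. All 3 groups were grown as tumours in mice and taken on day 15, and tumour cells were sorted for the assay. Res499 is one line, so its libraries give no spread between resistant lines. The labels do not say that replicates came from separate animals, so spreads and p-values measure the variation between these libraries, which may be technical.

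Open chromatin is found at gene starts, where a nucleosome-free stretch holds the transcription machinery, and at enhancers and other elements away from them. The strongest peaks of a library tend to lie at gene starts, so lists cut to the best peaks hold many of them. A peak caller scores such a stretch by its summit pileup, the number of fragments stacked at the highest point, against a local background taken from the fragments around it. A change that affects a whole chromosome or a long segment, and one that affects single elements, can therefore be looked for in different values: the share of peaks, their ranks, and the background around them. The question here was whether chromosome 14 differed between the groups and, if it did, over which of its 13 windows of 10 Mb.

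The sequences shown are the 250 bases before the starts of 5 genes, from RefSeq for GRCm38.p6. They are shown because Spry2 and Dnajc3 are at regions whose background was lower in Res499, and because Gtf2f2, Ube2e1 and Oxa1l are at regions that one group called in every library and another in none. They lie at chr14:105896820-105897069 (minus strand) for Spry2, chr14:118937682-118937931 (plus strand) for Dnajc3, chr14:76010866-76011115 (minus strand) for Gtf2f2, chr14:18331845-18332094 (minus strand) for Ube2e1 and chr14:54360591-54360840 (plus strand) for Oxa1l. Of the 250 bases, 78 lay inside the region at Spry2, 113 at Oxa1l, 230 at Ube2e1 and all 250 at Dnajc3 and at Gtf2f2. Capitals mark GGGCGG (the GC box) and CCAAT on either strand, and adjoining capitals can join overlapping copies of both.
Spry2: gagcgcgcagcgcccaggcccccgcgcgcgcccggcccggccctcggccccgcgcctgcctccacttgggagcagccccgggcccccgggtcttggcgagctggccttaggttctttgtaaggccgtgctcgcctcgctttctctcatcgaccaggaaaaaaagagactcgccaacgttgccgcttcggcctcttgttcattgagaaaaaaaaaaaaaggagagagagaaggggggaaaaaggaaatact
Dnajc3: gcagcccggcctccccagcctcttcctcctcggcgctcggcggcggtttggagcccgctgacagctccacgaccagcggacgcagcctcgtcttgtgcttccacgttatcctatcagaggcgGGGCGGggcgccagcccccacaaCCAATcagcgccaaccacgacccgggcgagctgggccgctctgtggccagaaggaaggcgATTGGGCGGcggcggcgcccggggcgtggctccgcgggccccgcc
Gtf2f2: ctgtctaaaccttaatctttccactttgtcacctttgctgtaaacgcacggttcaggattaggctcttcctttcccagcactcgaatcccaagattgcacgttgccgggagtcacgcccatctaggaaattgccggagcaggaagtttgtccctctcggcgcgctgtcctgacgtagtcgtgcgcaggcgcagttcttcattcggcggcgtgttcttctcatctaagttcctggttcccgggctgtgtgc
Ube2e1: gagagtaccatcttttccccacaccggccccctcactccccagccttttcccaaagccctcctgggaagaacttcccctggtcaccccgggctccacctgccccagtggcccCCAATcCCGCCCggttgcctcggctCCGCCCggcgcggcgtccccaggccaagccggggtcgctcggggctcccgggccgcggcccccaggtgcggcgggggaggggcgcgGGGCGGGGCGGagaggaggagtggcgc
Oxa1l: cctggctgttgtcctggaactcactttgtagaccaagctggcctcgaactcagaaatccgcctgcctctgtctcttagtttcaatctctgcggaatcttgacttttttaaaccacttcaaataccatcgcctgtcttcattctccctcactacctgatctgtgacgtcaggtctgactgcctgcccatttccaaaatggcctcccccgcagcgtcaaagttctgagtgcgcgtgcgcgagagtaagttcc

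The stretch before Ube2e1 held 4 GC boxes and 1 CCAAT with a GC content of 75.6%, and that before Dnajc3 held 2 of each with 73.6%. The stretches before Spry2 (62.4% GC), Gtf2f2 (54.4%) and Oxa1l (51.2%) held neither motif. Over the 97 chromosome 14 promoters of this length in regions called in all 9 libraries, 77.3% held a GC box and 49.5% a CCAAT, against 71.2% and 42.7% of the 4333 such promoters on the other chromosomes. Of all 21263 coding promoters of the same length, 42.6% held a GC box and 35.4% a CCAAT. A match is a run of letters, not a bound site.

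At the start of a coding gene, or up to 1 kb from it, were 283 (66.1%) of the 428 chromosome 14 regions, with 59 inside a gene body and 86 between genes. For a coding gene with no listed start, both gene ends were counted as starts here and below. On the other chromosomes 58.7% of 15215 regions were at a start. Regions at a start were called in all 9 libraries more often than the rest of chromosome 14: 86 of 283 (30.4%), against 4 of 59 in gene bodies and 6 of 86 between genes. A start region on the other chromosomes was called in all 9 in 43.7% of cases. At the other end, 101 of the 428 regions (23.6%) were called in 1 library only, against 21.8% of all 15643 regions. The median width was 698 bp. The regions were chosen by the deposited −log10 p of their peaks, so ranks are given below as a description, and the background and pileup, which were computed from the same peaks, are not independent of that choice. The last chromosome 14 peak kept in a list had a −log10 p of 4.92 to 16.48, and the first left out 7.46 to 16.38.

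The deposited lists held 9221 to 25374 peaks, and B16_untreated replicate 2 had the longest list and Res499 replicate 2 the shortest. The fragments per kb of genome, a measure of depth that the lists allow, came to 8.68 to 11.2 in Res499, 7.59 to 9.17 in B16_IFNg and 8.14 to 10.8 in B16_untreated. A shortest peak of at least 150 bp marked a class of longer fragments, which held Res499 replicate 3, B16_IFNg replicate 3 and B16_untreated replicates 1 and 3. The class was taken as a batch of unknown origin. Of 10 melanocyte markers, 6 had a region at their start, Pmel and Mitf in all 9 libraries and Tyrp1 in 0 Res499, 1 B16_IFNg and 3 B16_untreated libraries. Slc45a2 was called in 1 Res499 library only, Tyr in 1 library of each group and Dct in 2 of each, so each group had calls at 5 of the 10 markers, not all the same. In the full deposited lists Slc45a2 and Tyrp1 each had a peak in 1 Res499, 1 B16_IFNg and 3 B16_untreated libraries. Tyr had one in 1, 3 and 3, and Dct in all. Mlana had one in 1 Res499 library alone and Sox10 in 1 B16_untreated library alone. The full lists thus held 7, 6 and 7 of the markers in these groups. None of the 10 T and NK cell, 3 B cell, 6 myeloid and 3 endothelial markers had a region at their start. Cd4 had a peak in 2 B16_IFNg and 1 B16_untreated full lists. Of 4 fibroblast markers only Col1a1 had a region, called in 1 Res499, 2 B16_IFNg and 0 B16_untreated libraries. Its peaks were in 1 Res499, 3 B16_IFNg and 3 B16_untreated full lists, and Pdgfrb had one in 1 B16_untreated full list. Of 26 chromosome 14 genes used by other cell types (granzymes, mast cell proteases, Lcp1 and others), 25 had no region, and Dok2 was called in all 9 libraries.

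Chromosome 14 took a smaller share of the peaks in Res499 than in B16_untreated. The share was 2.47%, 2.21% and 2.53% in the 3 Res499 libraries, 2.71%, 2.63% and 2.53% in B16_IFNg and 2.81%, 2.64% and 2.61% in B16_untreated. Every Res499 library lay below every B16_untreated library, while B16_IFNg overlapped B16_untreated and its replicate 3 equalled Res499 replicate 3. The means were 2.41% ± 0.168 in Res499, 2.62% ± 0.0923 in B16_IFNg and 2.68% ± 0.111 in B16_untreated (SD, n = 3 each). With 3 libraries against 3, an exact test of a single value cannot go below p = 0.1, and no p is given because the chromosome was chosen with results known. In order from the lowest ratio of Res499 to B16_untreated, chromosome 14 was 3 of 20 for this share (0.896), behind X (0.662) and chromosome 18 (0.879). The Res499 and B16_untreated shares did not overlap on X and chromosomes 18, 19 (0.927) and 16 (0.942) either, all lower in Res499. Nor did they on chromosome 5 (1.18), which was higher in Res499. Within the long fragment class, the share was 2.53% in the Res499 library and 2.81% and 2.61% in the B16_untreated libraries. Within the short class, it was 2.47% and 2.21% in Res499 and 2.64% in B16_untreated.

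The regions of chromosome 14 also ranked lower than those of other chromosomes in every library. A region's rank was put on a percentile scale, on which 100 is the best peak of a library and 0 the last. The median percentile of the 96 regions was 59.4, 60.5 and 67.1 in Res499, 64.9, 66.5 and 62.3 in B16_IFNg and 64.3, 71.6 and 70.7 in B16_untreated, while that of the other chromosomes was 72.0 to 72.6 in each library. The Res499 and B16_untreated values overlapped, through Res499 replicate 3 and B16_untreated replicate 1. The median shift per region was −6.30 percentile points for Res499 against B16_untreated, with 60 of 96 regions lower. Over all 4486 regions the median was −0.49 and 52.5% were lower. In order from the lowest shift chromosome 14 was 2 of 20, behind X (−6.41, over 20 regions). The chromosome 14 shift was −3.17 without Res499 replicate 2, −3.26 without B16_untreated replicate 2 and −3.64 without B16_untreated replicate 3. With peaks ranked by fold in place of −log10 p it was −2.88. The shift was −2.81 for B16_IFNg against B16_untreated, with 57 of 96 lower, against 51% of all regions. Without B16_untreated replicate 1 that shift was −7.99. For Res499 against B16_IFNg the shift was 0.07, with 48 of 96 lower, against 51.1% of all regions. Both of the first 2 comparisons use the same B16_untreated libraries. No single region was called: limma on the percentiles, with Benjamini-Hochberg adjustment over all 4486 regions at 0.05, called 0 of 96 in each comparison (percent_called 0.0 in each direction). At an unadjusted p under 0.05 it counted 11 of 96 for Res499 against B16_untreated, 10 for B16_IFNg against B16_untreated and 8 for Res499 against B16_IFNg, where 7.18%, 4.9% and 6.84% of all regions did so. In simulated data the fit recovered 11% of regions given a shift of 30 percentile points. Its 0 calls therefore do not exclude shifts of the sizes given here.

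**Figure D1:**
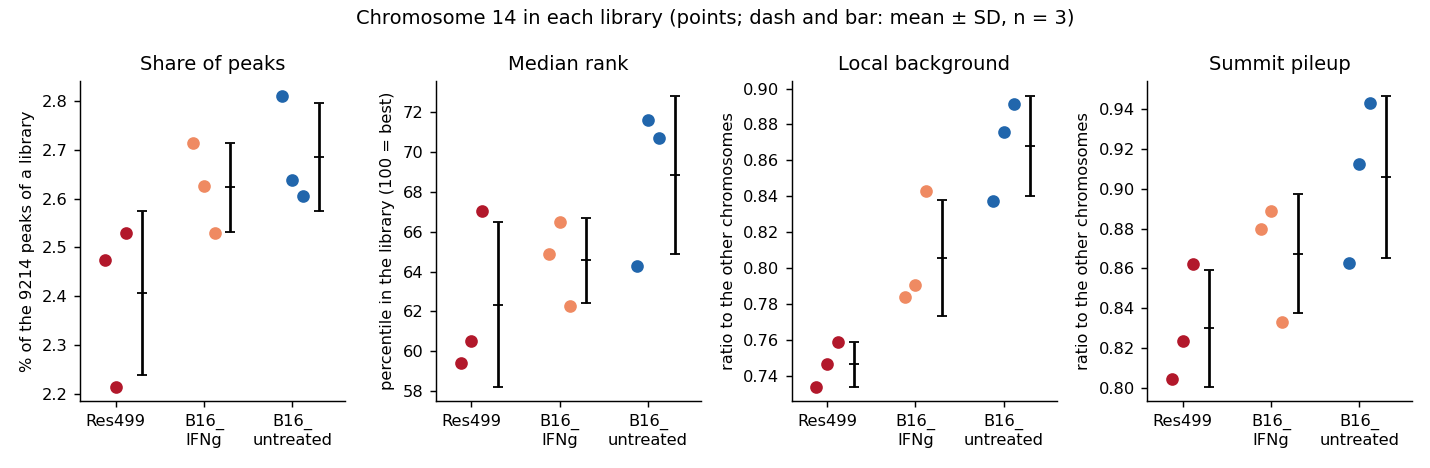
Chromosome 14 in each library: share of the 9214 peaks in percent, median percentile of its 96 regions, and their median background and summit pileup as ratios to the median region of the other chromosomes; points are libraries, the dash and bar the mean ± SD of 3. For the background, the 3 Res499 libraries (0.734 to 0.759) lie below all B16_IFNg (0.784 to 0.843) and B16_untreated (0.837 to 0.891) libraries.

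The difference was clearest in the background around the peaks. The deposited fold and −log10 p of a peak fix both its summit pileup and its local background, and each was set against the median region of the other chromosomes in the same library, so that depth cancels. The median background of the 96 regions was 0.734, 0.746 and 0.759 in Res499, 0.784, 0.790 and 0.843 in B16_IFNg and 0.837, 0.876 and 0.891 in B16_untreated. Res499 lay below both other groups without overlap, and B16_IFNg lay between, with its replicate 3 above B16_untreated replicate 1. The means were 0.746 ± 0.0126 in Res499, 0.806 ± 0.0323 in B16_IFNg and 0.868 ± 0.0279 in B16_untreated (SD, n = 3 each). Within the long fragment class the value was 0.759 in the Res499 library, against 0.837 and 0.891 in B16_untreated. Within the short class it was 0.734 and 0.746 in Res499, against 0.876 in B16_untreated. For B16_IFNg it was 0.843 in the long class and 0.784 and 0.790 in the short class, so that its library of the long class did not lie below both B16_untreated libraries of that class.

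The summit pileup moved the same way by less. Its median ratio was 0.804, 0.824 and 0.862 in Res499, 0.880, 0.889 and 0.833 in B16_IFNg and 0.863, 0.912 and 0.943 in B16_untreated. The highest Res499 and the lowest B16_untreated value all but met, and B16_IFNg overlapped both. Since the pileup at a summit and the background around it both count fragments, fewer copies of a stretch of DNA and less cutting along it cannot be told apart in these lists, nor can a change in every cell and one in a share of the sorted cells.

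Among all 20 chromosomes, chromosome 14 had the lowest background ratio in 2 of the 3 comparisons. The ratio of Res499 to B16_untreated was 0.860 for chromosome 14, followed by 0.913 for X, and the highest was 1.13 for chromosome 5. The Res499 and B16_untreated libraries did not overlap on chromosomes 4 (0.944) and 12 (0.967) either, which were also lower in Res499. Nor did they on chromosomes 5 and 10 (1.03), which were higher in Res499. The ratio of B16_IFNg to B16_untreated was 0.928, again the lowest of 20, and that of Res499 to B16_IFNg was 0.926, which stood second to X (0.861). X rests on 20 regions and chromosome 5 on 249. The ratios for the pileup on chromosome 14 were 0.916, 0.957 and 0.957 in these 3 comparisons and stood lowest, second and lowest of 20.

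**Figure D2:**
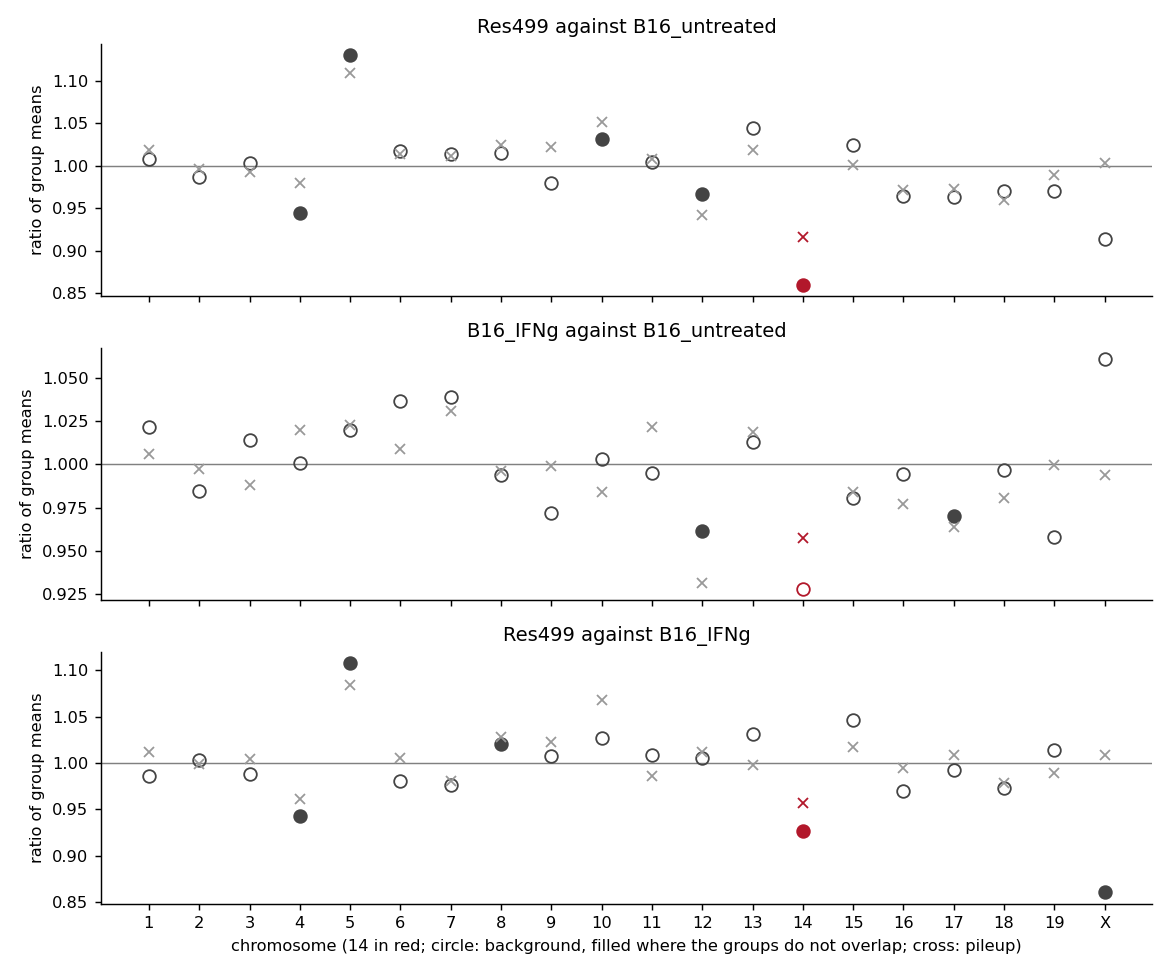
Ratio of group means per chromosome in each of the 3 comparisons, for the background (circles, filled where the 2 groups' libraries do not overlap) and the summit pileup (crosses), with chromosome 14 in red. Chromosome 14 is the lowest circle for Res499 against B16_untreated (0.860) and for B16_IFNg against B16_untreated (0.928), and chromosome 5 is the highest for Res499 against B16_untreated (1.13).

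Region by region, 71 of the 96 had a lower background in Res499 than in B16_untreated, where 51.6% of all 4471 regions with a recovered background did. Every Res499 library was below every B16_untreated library in 32 of 96 regions (33.3%), against 11.1% of all regions, and above in 6 of 96 (6.25%), against 9.75%. For B16_IFNg against B16_untreated, 17 of 96 were below in every library (17.7%), against 8.14% of all, and 7 above, against 6.46%. For Res499 against B16_IFNg, 15 of 96 were below (15.6%), against 7.45%, and 0 above, against 7.22%. The median log2 difference in background was −0.16 for Res499 against B16_untreated, −0.08 for B16_IFNg against B16_untreated and −0.09 for Res499 against B16_IFNg, and the medians over all regions were −0.01, −0.02 and −0.004. At gene starts the medians were −0.17 over 86 chromosome 14 regions and −0.001 over 3905 on other chromosomes for Res499 against B16_untreated, and 65 of the 86 were below 0. In the 6 regions between genes the median was −0.14, and 5 were below 0. In the 4 regions in gene bodies it was 0.15, with 1 below 0.

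The 13 windows did not share the difference evenly. Among the 96 regions, the median log2 background of Res499 against B16_untreated was −0.39 at 120 to 130 Mb (11 regions), −0.34 at 80 to 90 Mb (3 regions), −0.33 at 90 to 100 Mb (3 regions), −0.23 at 100 to 110 Mb (6 regions) and −0.22 at 50 to 60 Mb (15 regions). It was 0.00 at 10 to 20 Mb (7 regions), 0.03 at 30 to 40 Mb (8 regions), −0.02 at 40 to 50 Mb (8 regions) and −0.05 at 70 to 80 Mb (10 regions). It was −0.18 at 0 to 10 Mb (2 regions), −0.11 at 20 to 30 Mb (8 regions), and −0.14 both at 60 to 70 Mb (12 regions) and at 110 to 120 Mb (3 regions). The windows from 80 Mb on thus held the 4 lowest medians, 3 of the 5 resting on 3 regions each, and 50 to 60 Mb came next. In the last window the median background was 0.873, 0.819 and 0.901 in Res499, 0.873, 0.827 and 0.965 in B16_IFNg and 0.909, 1.01 and 1.09 in B16_untreated. In the window at 40 to 50 Mb it was 0.663, 0.621 and 0.651 in Res499, 0.713, 0.744 and 0.689 in B16_IFNg and 0.733, 0.664 and 0.703 in B16_untreated. Of the 9 windows with at least 5 regions, every Res499 library was below every B16_untreated library in 7, against 12.8% of the 234 such windows of the other chromosomes.

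Some regions sat at the lowest background of their library. A caller that uses a genome-wide mean as the least background it allows gives such regions one and the same value, below which no difference can be seen. Of the 96 regions, 12.5%, 26.0% and 4.17% sat within 2% of the library's lowest background in the Res499 libraries, 4.17%, 9.38% and 5.21% in B16_IFNg and 2.08%, 0% and 0% in B16_untreated. On the other chromosomes 0.0683% to 4.37% of regions did. With the 81 regions whose background, averaged on a log scale over all 9 libraries, was at least 1.25 times that lowest value, the median difference of Res499 against B16_untreated was −0.21, with 67 of 81 regions lower, against 51.6% of 4250 regions elsewhere. The filter used the same background values, so a region at the lowest value in Res499 could pass through higher values in B16_untreated. The set is therefore not independent of the comparison. All 13 windows had a median below 0 on these 81 regions, between −0.003 (30 to 40 Mb) and −0.40 (80 to 90 Mb). Of 248 windows on other chromosomes, 61.3% did. The window at 40 to 50 Mb stood at −0.22 and that at 10 to 20 Mb at −0.004. For B16_IFNg against B16_untreated the median was −0.13 (62 of 81 lower) and 12 of 13 windows were below 0, down to −0.28 at 90 to 100 Mb, with 63.3% of windows elsewhere below 0. For Res499 against B16_IFNg it was −0.09 (63 of 81 lower) and 13 of 13 windows were below 0, down to −0.20, with 58.1% elsewhere. The median background of these regions was 0.786, 0.773 and 0.782 in Res499, 0.833, 0.806 and 0.849 in B16_IFNg and 0.846, 0.925 and 0.910 in B16_untreated. With the 141 regions that had a peak in all 9 deposited lists, the median of Res499 against B16_untreated was nearer 0, at −0.103, with 98 of 141 lower, and the window at 30 to 40 Mb was above 0 (0.03). The median was −0.05 for B16_IFNg against B16_untreated, and the windows at 10 to 20, 30 to 40 and 40 to 50 Mb were above 0 (0.09, 0.005 and 0.07). It was −0.09 for Res499 against B16_IFNg, and the window at 20 to 30 Mb was above 0 (0.03). So whether every window was below 0 depended on the regions used. On the 81 regions above the lowest background chromosome 14 stood second to X (−0.21 for each) for Res499 against B16_untreated.

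**Figure D3:**
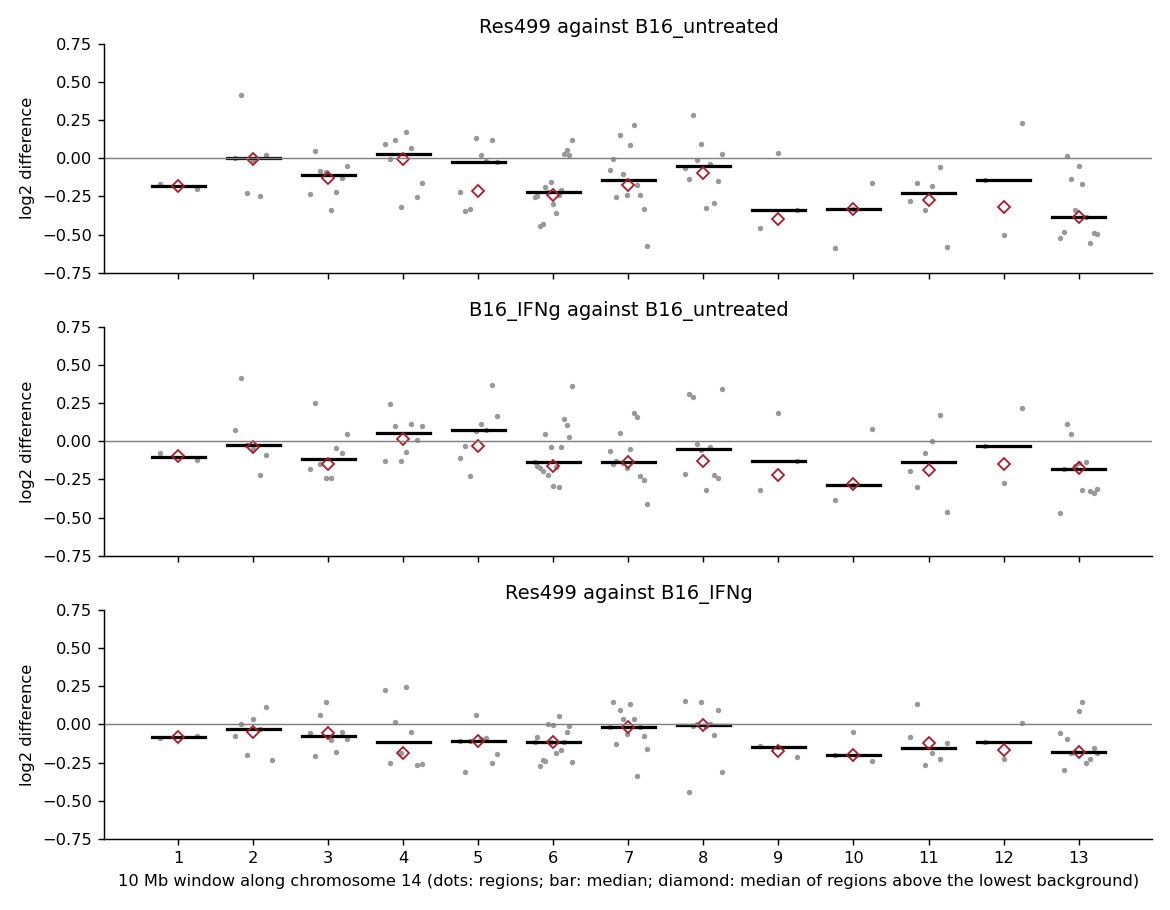
Log2 difference in background in each 10 Mb window, numbered from the first base, for the 3 comparisons: dots are the 96 regions called in all 9 libraries, bars their medians, and diamonds the medians of the 81 regions above the lowest background. For Res499 against B16_untreated the bars run between −0.39 and 0.03 and the diamonds between −0.40 and −0.003; 1 region above 1 is outside the axis in each of the first 2 panels.

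Fewer chromosome 14 regions were called in Res499, unevenly along the chromosome. The number of chromosome 14 regions called was 220, 188 and 229 in Res499, 248, 234 and 232 in B16_IFNg and 259, 240 and 240 in B16_untreated, so that every Res499 library was below every other library. The mean number called was lower in Res499 than in B16_untreated in 13 of 13 windows, and in 10 of 13 without Res499 replicate 2 or without B16_untreated replicate 1. The difference in means was small in some windows, at −0.33 at 20 to 30 Mb and −0.67 at 40 to 50 Mb and at 80 to 90 Mb. It was −5.67 at 100 to 110 Mb and −7 at 50 to 60 Mb. Among the 9 windows with at least 5 regions called everywhere it was lower in 9 of 9, against 57.3% of 234 windows elsewhere. The largest difference in mean calls was at 50 to 60 Mb, the most densely filled window, with 46, 28 and 41 regions called in Res499, 49, 48 and 43 in B16_IFNg and 47, 44 and 45 in B16_untreated. At 100 to 110 Mb the calls were 9, 15 and 21 in Res499, 19, 19 and 20 in B16_IFNg and 20, 19 and 23 in B16_untreated. Much of the difference at 50 to 60 Mb came from Res499 replicate 2, and at 100 to 110 Mb from Res499 replicate 1. B16_IFNg had fewer calls than B16_untreated in 8 of 13 windows, and Res499 fewer than B16_IFNg in 9 of 13. Among the 9 windows with at least 5 regions, B16_IFNg had fewer than B16_untreated in 5, near the 56.0% of windows elsewhere. Res499 had fewer than B16_IFNg in 7 of these 9, against 49.6% elsewhere. The percentiles shifted below 0 in 8 of 9 windows for Res499 against B16_untreated, between −12.1 at 100 to 110 Mb and 4.64 at 40 to 50 Mb, where 57.3% of the windows elsewhere were below 0. For B16_IFNg against B16_untreated 7 of 9 were below 0, against 56.0%, and for Res499 against B16_IFNg 4 of 9, against 57.3%.

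**Figure D4:**
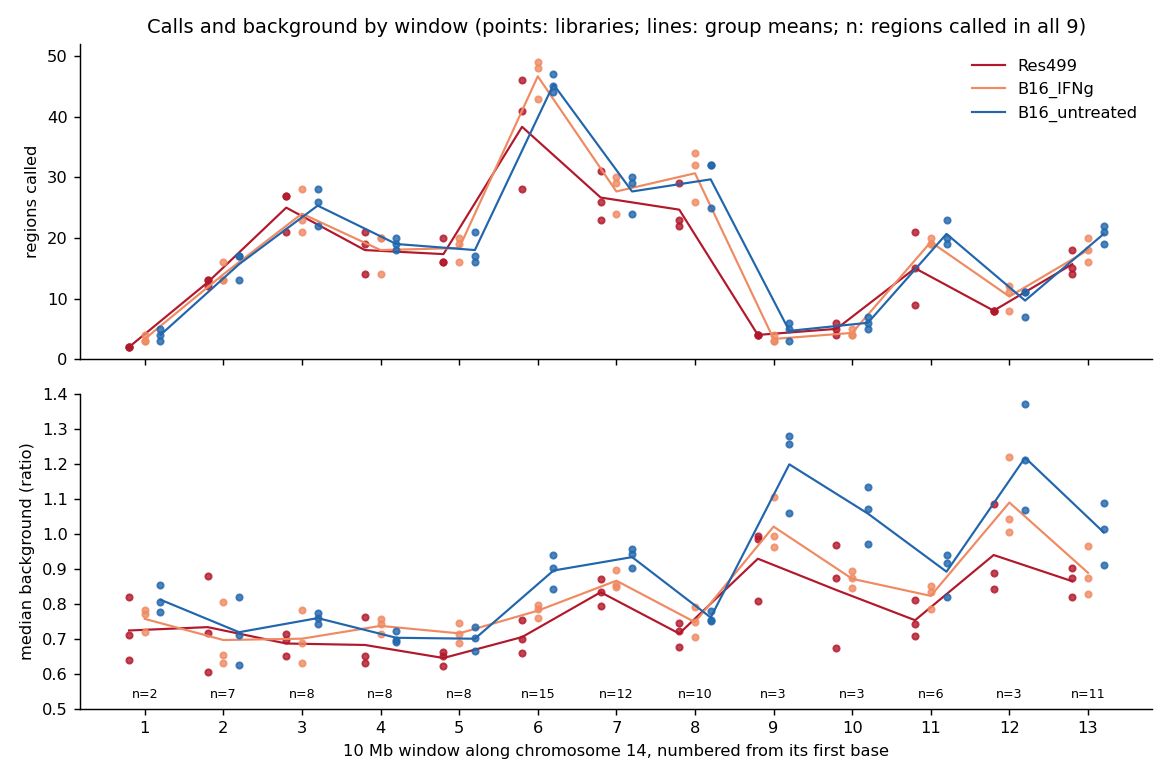
Regions called (upper panel) and median background of the regions called in all 9 libraries (lower panel) in each 10 Mb window of chromosome 14; points are libraries and lines group means. From window 9 on, the Res499 means for the background run between 0.753 and 0.939 and those of B16_untreated between 0.892 and 1.22.

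At single regions, 10 of the 96 had a lower background in Res499 than in B16_untreated by limma on log2 values over all 4471 regions (Benjamini-Hochberg adjusted p under 0.05), where percent_called was 1.16 in this direction, and 1 had a higher one (percent_called 1.03). At an unadjusted p under 0.05 there were 30 of 96, against 17.4% of all regions. Of the 10, 9 lay at 80 Mb or beyond. With the fragment class as a covariate the count of lower regions was 6 of 96, where 0.917% of all regions were called lower. Without Res499 replicate 1, Res499 replicate 2, B16_untreated replicate 2 or B16_untreated replicate 3 the count of lower regions was 0. In these fits 0.0872% to 0.195% of all regions were called lower. Without B16_untreated replicate 1 the count was 16 of 97, and the share of all regions called lower also rose, to 4.67%. For B16_IFNg against B16_untreated limma called 0 lower (percent_called 0.0224) and 1 higher (percent_called 0.112), with 22 of 96 at an unadjusted p under 0.05, against 10% of all regions. For Res499 against B16_IFNg it called 0 in each direction (percent_called 0.0), with 8 of 96 at an unadjusted p under 0.05, a share below the 9.57% of all regions. The adjusted p-values below are two-sided.

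Among signalling genes, the region at the start of Spry2 (chr14:105896992-105897960), an inhibitor of growth factor signalling through the ERK pathway, had a background of 1.15, 1.17 and 1.27 in Res499, 1.31, 1.08 and 1.55 in B16_IFNg and 1.86, 1.75 and 1.75 in B16_untreated. Res499 and B16_untreated did not overlap, and the log2 difference was −0.58 ± 0.13 (SE; limma adjusted p = 0.0123). Rap2a (chr14:120477355-120478895), a small GTPase of the Ras family, had 1.26, 0.963 and 1.42 in Res499, 1.37, 1.41 and 1.68 in B16_IFNg and 1.62, 1.67 and 1.73 in B16_untreated. Its log2 difference was −0.48 ± 0.14 (limma adjusted p = 0.0436).

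Zic2, a zinc finger transcription factor of neural development, had a lower background in Res499 over a region of 2247 bp (chr14:122474007-122476253). Its background was 1.01, 1.04 and 1.0 in Res499, 1.15, 1.14 and 1.28 in B16_IFNg and 1.38, 1.47 and 1.64 in B16_untreated. The 3 groups did not overlap with one another, and the log2 difference of Res499 against B16_untreated was −0.55 ± 0.13 (limma adjusted p = 0.0131). Its rank also stood lower, at percentiles of 16.7, 29.4 and 9.79 in Res499, 33.7, 28.4 and 37.1 in B16_IFNg and 37.8, 45.3 and 64.5 in B16_untreated, which did not pass the rank test (limma adjusted p = 0.523). Pcdh9 and Pcdh17 encode protocadherins, which act in cell adhesion. Pcdh9 (chr14:93890270-93891477) had 0.731, 0.874 and 1.16 in Res499, 0.955, 1.15 and 1.02 in B16_IFNg and 1.13, 1.59 and 1.39 in B16_untreated, with an overlap between Res499 replicate 3 and B16_untreated replicate 1 (log2 difference −0.59 ± 0.14, limma adjusted p = 0.0196). Pcdh17 (chr14:84443034-84443885) had 0.809, 1.0 and 0.984 in Res499, 0.994, 0.962 and 1.11 in B16_IFNg and 1.23, 1.30 and 1.29 in B16_untreated (limma adjusted p = 0.0426).

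The region shared by the starts of Cdca2, a regulatory subunit of protein phosphatase 1 on mitotic chromosomes, and Kctd9 (chr14:67715339-67716515) had 1.03, 1.21 and 1.23 in Res499, 1.25, 1.36 and 1.26 in B16_IFNg and 1.36, 1.89 and 1.94 in B16_untreated. It was the one lower region before 80 Mb, at a log2 difference of −0.57 ± 0.14 (limma adjusted p = 0.0147). Dnajc3 (chr14:118937488-118938361), a co-chaperone of the endoplasmic reticulum, had 0.842, 0.889 and 1.09 in Res499, 1.01, 1.04 and 1.24 in B16_IFNg and 1.34, 1.37 and 1.25 in B16_untreated (log2 difference −0.50 ± 0.13, limma adjusted p = 0.0290). Tmtc4 (chr14:122982666-122983757), a membrane protein of the same compartment, and Pcca (chr14:122533950-122534675), the alpha subunit of the mitochondrial propionyl-CoA carboxylase, fell by 0.50 and 0.49 on the log2 scale (limma adjusted p = 0.0325 and 0.0291), with no overlap between Res499 and B16_untreated at either.

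The 10th of these regions was between genes, at chr14:120137623-120138460, 95188 bp from the nearest coding gene end. Its background was 0.641, 0.621 and 0.764 in Res499, 0.586, 0.665 and 0.873 in B16_IFNg and 0.809, 1.01 and 1.10 in B16_untreated (log2 difference −0.52 ± 0.14, limma adjusted p = 0.0341). It was also the one chromosome 14 region that was lower in the limma fit on summit pileup (percent_called 0.0447), with 0.609, 0.647 and 0.862 in Res499, 0.880, 0.778 and 1.17 in B16_IFNg and 1.02, 1.55 and 1.41 in B16_untreated (log2 difference −0.91 ± 0.21, adjusted p = 0.0393). Its percentiles were 26.4, 37.3 and 68.0 in Res499, 79.8, 58.8 and 90.2 in B16_IFNg and 85.5, 96.1 and 93.6 in B16_untreated, the lowest rank-test p of chromosome 14 for Res499 against B16_untreated (0.00425), with a limma adjusted p of 0.489.

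The one region with a higher background was also the best-ranked of chromosome 14, with a mean percentile of 98.0. It spans 3683 bp between genes at chr14:19415732-19419414 and was the widest of all 15643 regions. Its background was 4.65, 5.69 and 3.02 in Res499, 4.72, 6.30 and 4.37 in B16_IFNg and 1.60, 1.98 and 2.2 in B16_untreated. Res499 and B16_IFNg overlapped each other, and both lay above B16_untreated in every library, with log2 differences of 1.17 ± 0.16 (limma adjusted p = 2.51e-06) and 1.41 ± 0.16 (limma adjusted p = 8.38e-09). Its summit pileup was 7.13, 8.41 and 4.52 in Res499, 5.80, 6.94 and 5.50 in B16_IFNg and 1.93, 1.48 and 2.32 in B16_untreated, and it was the one higher call on chromosome 14 in the limma fit on pileup (percent_called 0.157 for Res499 and 0.0895 for B16_IFNg against B16_untreated). How multiply mapped reads were treated is not given in the sources used here.

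**Figure D5:**
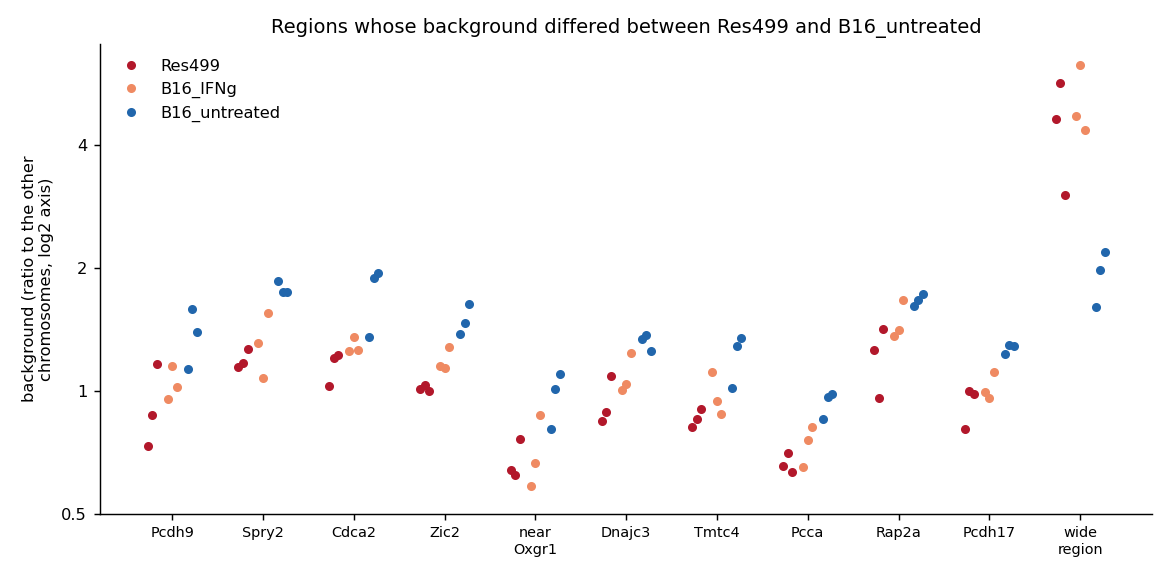
Background of each library, as a ratio to the median region of the other chromosomes on a log2 axis, at the 11 chromosome 14 regions past the limma test of Res499 against B16_untreated. The first 10 are lower in Res499, and the wide region between genes stands at 3.02 to 5.69 in Res499, 4.37 to 6.30 in B16_IFNg and 1.60 to 2.2 in B16_untreated.

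Regions present in one group and absent from the other were few. For Res499 against B16_untreated, 1 of 391 regions called in at least 1 of the 6 libraries was gained, that is called in every Res499 and no B16_untreated library, and 4 were lost, where percent_called was 0.596 for gains and 0.984 for losses. These shares are near the genome's. Without B16_untreated replicate 2 the losses numbered 13, and leaving out any one of Res499 replicates 1 and 3 or B16_untreated replicates 1 and 3 gave 9 to 12. With a library left out the rule asks only for the libraries that remain, which is easier to meet. The share over all regions was not computed for these counts. The gain was at the start of Ube2e1, a ubiquitin-conjugating enzyme (chr14:18331750-18332074), at percentiles of 12.5, 23.7 and 7.98 in Res499. It had a peak in 3 Res499, 1 B16_IFNg and 3 B16_untreated full deposited lists, so in B16_untreated it fell below the end of the equal lists. The start of Gtf2f2 (chr14:76010546-76011334), a subunit of the general transcription factor TFIIF, was lost. It had percentiles of 78.3, 19.0 and 0.19 in B16_IFNg and 25.1, 0.26 and 2.69 in B16_untreated, and no Res499 list held a peak there even in full. The start of Mtmr9, a catalytically inactive relative of the myotubularin phosphatases, was lost as well, with calls in 2 B16_IFNg libraries, and its full-list peaks numbered 2 in Res499, 2 in B16_IFNg and 3 in B16_untreated. The other 2 losses were a region in the body of Chd8, a chromatin remodeller (chr14:52244273-52244839), and one 57769 bp from Fermt2, an activator of integrins (chr14:45587834-45588628), with 1 and 0 Res499 full lists holding a peak.

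For B16_IFNg against B16_untreated 2 of 395 regions were gained (percent_called 0.427) and 1 was lost (percent_called 0.612). The gains were at the start of Oxa1l, an insertase of the inner mitochondrial membrane (chr14:54360728-54361325), and of Dlgap5, a mitotic spindle protein (chr14:47418071-47418429). Oxa1l had percentiles of 0.0, 19.0 and 22.5 in the 3 B16_IFNg libraries and was called in no Res499 library, and 2 Res499, 3 B16_IFNg and 3 B16_untreated full lists held it. Dlgap5 had 61.4, 28.1 and 0.19, was called in 1 Res499 library and had a peak in 1, 3 and 2 full lists. The loss lay 317637 bp from Klf5. For Res499 against B16_IFNg 2 of 378 were gained (percent_called 0.386) and 4 lost (percent_called 0.578). The gains were Ube2e1 and a region 62773 bp from Ppp2r2a, and the losses Oxa1l, Gtf2f2, the start shared by Htd2 and Rpp14, and a region 1637 bp from Tm9sf2. In B16_IFNg replicates 1 and 3, 222 and 224 peaks tied at the last −log10 p of the equal lists, so calls of percentiles near 0 there rest on how ties were broken.

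Of 15 interferon and antigen processing genes on chromosome 14, 11 had a region at their start in at least 1 library and 2 in all 9. Of all 851 coding genes of the chromosome, 309 had a region at a start and 103 had one called in all 9 libraries. The counts of the lists below can be set beside these. Irf9, the DNA-binding subunit of the interferon-stimulated factor ISGF3, had calls in 1 B16_IFNg and 1 B16_untreated library and in no Res499 library, and 2 full lists of each group held it. Psme2, a subunit of the interferon-induced proteasome activator PA28, was called in all 9, at percentiles of 42.3, 52.98 and 44.5 in Res499, 37.0, 60.0 and 88.8 in B16_IFNg and 64.8, 71.3 and 92.7 in B16_untreated. Res499 lay below B16_untreated without overlap there, and its background was 1.06, 1.01 and 0.980 in Res499, 0.979, 1.27 and 1.2 in B16_IFNg and 1.03, 1.22 and 1.30 in B16_untreated, which did not pass the test (limma adjusted p = 0.420). The other gene called in all 9, Mapk8, a stress-activated kinase, had higher means in Res499 on both measures, with percentiles of 65.1, 37.3 and 65.8 in Res499, 29.5, 78.7 and 27.1 in B16_IFNg and 37.9, 61.6 and 10.2 in B16_untreated. The Res499 and B16_untreated ranks overlapped there, and neither measure passed (limma adjusted p = 0.915 for rank and 0.677 for background). Of these 2 genes, 1 was thus lower in Res499 than in B16_untreated on each measure. Psme1, the partner subunit, was called in 1 B16_IFNg library alone, and Psmb5, a catalytic proteasome subunit, in 1 Res499, 1 B16_IFNg and 0 B16_untreated libraries. Tnfrsf10b, a death receptor for TRAIL, and Ripk3, a kinase of necroptosis, had no peak in any full list.

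Of 14 melanocyte and neural crest genes, 8 had a region and 3 had one in all 9 libraries: Spry2, Zic2 and Bmpr1a. All 3 ranked lower in Res499 than in B16_untreated, with a median of −30.6 percentile points, beside −6.30 over the 96 regions, and Spry2 and Zic2 are among the 10 regions above. The background was lower in Res499 in 2 of the 3, and that of Bmpr1a, a receptor for bone morphogenetic proteins, averaged 0.787 in Res499 and 0.698 in B16_untreated. Dct, the dopachrome tautomerase of melanin synthesis, was called in 2 libraries of each group and held in every full list. Where it was called its background was 1.25 and 1.0 in Res499, 1.04 and 1.43 in B16_IFNg and 1.54 and 1.46 in B16_untreated. Ednrb, the endothelin receptor of melanocyte development, had no peak in any full list. Calls at Zic5 numbered 3 in Res499, 2 in B16_IFNg and 1 in B16_untreated, while its neighbour Zic2 was called in every library, and those at Gpc6, a glypican, 1, 3 and 2.

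Of 24 growth control and cell cycle genes, 19 had a region and 9 had one in all 9 libraries, of which 6 ranked lower in Res499 than in B16_untreated, with a median of −13.9 percentile points. Of these 9, 6 also had a lower background in Res499 than in B16_untreated and 8 a lower one in Res499 than in B16_IFNg, where 71 of the 96 regions did so in each comparison. The tumour suppressors Rb1, Lats2 and Bap1 were called in 2, 2 and 2 Res499, 3, 2 and 2 B16_IFNg and 2, 1 and 1 B16_untreated libraries. Of 20 chromatin and RNA processing genes with a position in the tables, 17 had a region and 10 had one in all 9 libraries, with a median of −8.83 percentile points for Res499 against B16_untreated (7 of 10 lower) and a lower background in 7. The same 10 had a lower background in Res499 than in B16_IFNg in 10 of 10, where 71 of the 96 regions (74%) and 51.1% of all regions did. Prmt5, an arginine methyltransferase, and Hnrnpc, an RNA-binding protein, were among the 5 best-ranked regions of the chromosome, at mean percentiles of 90.3 and 89.1. Hnrnpc had a background of 0.755, 0.819 and 1.01 in Res499, 1.08, 1.14 and 0.895 in B16_IFNg and 1.04, 1.16 and 1.30 in B16_untreated (limma adjusted p = 0.0627). Sap18, a subunit of histone deacetylase complexes, had 2 calls in Res499, 3 in B16_IFNg and 1 in B16_untreated. None of these lists had a region past the rank test.

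Against the general shift, some regions ranked higher in Res499. Ndfip2, an adaptor of Nedd4 family ubiquitin ligases, had percentiles of 81.7, 77.0 and 86.3 in Res499, 85.2, 32.4 and 76.2 in B16_IFNg and 48.2, 38.2 and 21.6 in B16_untreated. Vdac2, a channel of the outer mitochondrial membrane, had 88.9, 63.1 and 42.1 in Res499, 85.3, 46.8 and 76.3 in B16_IFNg and 41.4, 21.6 and 23.6 in B16_untreated. In both, Res499 lay above B16_untreated without overlap, with differences of 45.6 ± 13.7 and 35.8 ± 14.1 percentile points (SE; limma adjusted p = 0.529 and 0.659). In the other direction, Dcaf11, a substrate receptor of a cullin ubiquitin ligase, had 38.8, 12.3 and 33.5 in Res499, 38.8, 27.4 and 24.5 in B16_IFNg and 68.6, 47.3 and 75.3 in B16_untreated. Both Res499 and B16_IFNg lay below B16_untreated there, by 35.6 ± 9.88 and 33.5 ± 9.88 points (limma adjusted p = 0.523 and 0.987). Every Res499 library ranked above every B16_untreated library in 3 of 96 regions (3.12%, against 5.71% of all), and below in 11 of 96 (11.5%, against 6.13%). For B16_IFNg against B16_untreated the counts were 3 above (5.22% of all regions) and 10 below (4.88%), and for Res499 against B16_IFNg 1 above (5.06%) and 5 below (5.51%).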

How the data were processed

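Peaks were called per library and not on pooled replicates, as the deposited files show, with CASAVA, cutadapt 1.9, Bowtie2 2.2.4 and MACS2 on GRCm38 (mm10), per the submitters' processing notes. Caller settings, and whether reads were offset for the transposase, are not given in the sources used here. Each deposited peak has a score, a fold enrichment (a ratio over the local background), a −log10 p and a −log10 q of the authors' caller. The lists hold no read counts. Peaks were ranked by −log10 p, with ties broken by fold, then width, then a fixed hash of position, and merged where they overlapped. Pileup and background were recovered from fold and −log10 p within 0.01 for peaks with a −log10 p under 200. Depth was taken as the library's lowest background over its shortest peak width. limma 3.58.1 in R 4.3.3 was fitted over all 9 libraries, without the replicate number as a block. Gene starts came from RefSeq tables of GRCm38.p6, and 1 listed gene (Rbm23) had no match there. Of the 851 coding genes of chromosome 14, 675 had a listed start. For the rest both gene ends were used, so some regions counted at a start may lie at the other end of a gene. Python 3.11.15, numpy 2.4.6 and pandas 2.3.3 were used. The members and the gene lists were chosen with earlier results of these data known. Genes were named by rule: all gained and lost regions, the 5 lowest rank-test p-values per direction (the leading ones are printed), the 5 best ranks, and list genes whose calls differed between groups or that the list is known for. The measures of background and pileup, and the 11 regions named from them, were added after seeing the data. The limma step was tested on simulated data, with shifts planted in Res499 at 200 of 4486 regions. Against B16_untreated it recovered 11%, 67% and 89.5% of them at shifts of 30, 60 and 90 percentile points. Alternatives are given in the closing section.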

Additional observations from a re-analysis of the deposited data

How the results depend on the processing

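The differences below are on the scales of the report (percentage points for shares, percentile points for ranks, log2 for background). The chromosome 14 share of Res499 against B16_untreated was −0.427 with peaks ranked by fold, and stayed below 0 with each library left out (−0.340 to −0.183). That of B16_IFNg against B16_untreated was −0.300 ranked by fold and −0.193 in all deposited peaks, and 0.0018 without B16_untreated replicate 1, so its direction rests on that library. The rank shift ran between −8.52 and −3.17 for Res499 against B16_untreated with libraries left out, between −7.99 and −1.87 for B16_IFNg against B16_untreated, and between −2.36 and 2.26 for Res499 against B16_IFNg. With peaks ranked by fold it was −2.88, −4.41 and 2.03 in these comparisons. The background shift ran between −0.184 and −0.145, −0.102 and −0.0690, and −0.125 and −0.0816. For Res499 against B16_untreated it was −0.103 over regions with a peak in all 9 deposited lists, and for B16_IFNg against B16_untreated −0.05 over those and −0.128 over regions above the lowest background. The regions lower in background for Res499 against B16_untreated numbered 6 with fragment class as a covariate, where 0.917% of all regions were called lower. With libraries left out they numbered 0 to 16, where 0.0872% to 4.67% of all regions were. For B16_IFNg against B16_untreated they numbered 0 to 2, where 0% to 0.498% of all regions were. The cause of these changes was not tested.

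Gained and lost regions moved most. Requiring 2 of 3 libraries gave 6 gained and 26 lost for Res499 against B16_untreated, 12 and 13 for B16_IFNg against B16_untreated, and 6 and 18 for Res499 against B16_IFNg. In all deposited peaks no region was gained in any comparison (0), and 43 and 25 were lost against B16_untreated in Res499 and B16_IFNg, where the B16_untreated lists are longer. A peak covering 50% of the region gave 20 lost for Res499, and 1 gained and 15 lost for B16_IFNg, against B16_untreated. Lists cut to 50% of their length gave 1 lost for Res499 against B16_untreated and 0 gained in the comparisons with B16_IFNg. Ranking by fold gave 1 gained and 4 lost for B16_IFNg against B16_untreated, and ties broken by the shortest peak gave 0 gained there and 1 lost for Res499 against B16_IFNg. With libraries left out, gains ran from 1 to 3, 2 to 6 and 2 to 5, and losses from 4 to 13, 1 to 5 and 4 to 11, for Res499 against B16_untreated, B16_IFNg against B16_untreated and Res499 against B16_IFNg. Leaving out a library makes the rule easier to meet, as only the remaining libraries count. The share over all regions was not computed for the alternatives, so their counts cannot be read as particular to chromosome 14.

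Replicate numbers occur in every group. Same-numbered libraries deviated together little (correlations of −0.0314 to 0.168), and those of different number had correlations of −0.156 to 0.101. These values cannot exclude a pairing. All replicate 3 libraries were in the long fragment class and all replicate 2 libraries in the short class. The number thus partly follows the class. With the replicate block, limma called 0 regions by rank in each comparison, with 13, 9 and 9 of 96 at an unadjusted p under 0.05 (7.65%, 4.66% and 7.13% of all regions), and 12 lower in background for Res499 against B16_untreated (1.72% of all), beside 10 without it (1.16%). The rank test called 0 chromosome 14 regions under every alternative run. The lists hold no reads, so precision rests on 3 libraries a group.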
